A study of Mus musculus with 8 samples.

Results

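Reactive gliosis was followed through 10 genes in detached mouse retina: the filament genes Gfap, Vim and Nes, the Stat3 signalling genes Stat3, Socs3 and Cebpd, the secreted proteins Serpina3n, Lcn2 and A2m, and the surface receptor Cd44. They were taken by gene symbol from a table of 56465 features, of which 25972 carried a symbol. Where a symbol stood on several rows the row with the highest mean was used, which decided only Cd44, with 2 rows. All 10 had a mean of at least 10 normalized reads and were tested among 19798 such features.

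RNA was sequenced from 8 retinas of mice labelled C57Bl/6J, 4 wild type (WT, replicates 3, 4, 5 and 7) and 4 expressing human transferrin (TG, replicates 2, 5, 6 and 8), the iron carrier of plasma. Every retina had been detached by a subretinal injection of 10 µl of sodium hyaluronate and was taken after 4 days, so the WT controls carry the injury as well, and attached retina was not analysed here. The series asks what transferrin does during detachment. WT held 3 males and 1 female, and TG 2 males and 2 females. WT 7, TG 2 and TG 6 were left eyes and the other libraries right eyes. The sources used here do not give the transgene's promoter, its founder lines or the age of the mice. Nor do the labels tie every retina to a mouse of its own, and the p-values therefore cover the spread among these 8 libraries, which may be partly technical.

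Müller glia span the whole retina and, with the astrocytes of the inner surface, respond to injury by building intermediate filaments. Cytokines of the interleukin-6 family signal through gp130 (Il6st) and Janus kinases to the transcription factor Stat3. Stat3 drives Gfap, acute phase genes and its own inhibitor, Socs3. Retinal detachment is a classical setting of this reaction.

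RefSeq promoter windows (GRCm38.p6, the build of the deposited coordinates) were found for 8 of the 10 genes, and Cebpd and A2m had none in the table used. The 250 bases before each RefSeq start were searched on both strands for the Stat-type palindrome TTCNNNGAA, its stricter form TTCCNGGAA (every match of which is also a match of the first), and the C/EBP-type motif TTGCNNAA. The first was in 1 of 8 windows, that of Socs3 (TTCTTAGAA, 154 to 146 bases before the start), and in 7.02% of all 32851 promoter windows. The second was in 0 of 8, and in 0.913% of all windows. The third was in 1 of 8, that of Lcn2 (TTGCTCAA, 216 to 209 bases before the start), and in 9.56% of all windows. Shown are those 2 windows and the windows of Gfap and Nes, the 2 members whose profiles over the libraries were closest. Capitals mark a match, and each sequence reads 5′ to 3′ toward the start of its gene.
Socs3, chr11:117969367-117969616, minus strand: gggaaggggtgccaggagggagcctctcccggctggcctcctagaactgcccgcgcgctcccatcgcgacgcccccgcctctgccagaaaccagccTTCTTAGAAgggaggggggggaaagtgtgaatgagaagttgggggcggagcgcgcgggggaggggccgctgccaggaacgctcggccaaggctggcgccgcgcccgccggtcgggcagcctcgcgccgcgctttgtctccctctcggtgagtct
Lcn2, chr2:32387740-32387989, minus strand: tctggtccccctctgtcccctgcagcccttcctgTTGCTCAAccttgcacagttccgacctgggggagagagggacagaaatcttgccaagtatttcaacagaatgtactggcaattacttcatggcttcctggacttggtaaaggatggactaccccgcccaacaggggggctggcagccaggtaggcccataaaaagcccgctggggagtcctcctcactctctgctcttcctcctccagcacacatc
Gfap, chr11:102897201-102897450, minus strand: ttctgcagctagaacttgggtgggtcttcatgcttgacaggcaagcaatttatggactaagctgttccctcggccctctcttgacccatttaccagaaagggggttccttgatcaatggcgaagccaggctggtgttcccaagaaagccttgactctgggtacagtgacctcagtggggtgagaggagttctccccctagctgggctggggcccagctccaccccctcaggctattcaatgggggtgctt
Nes, chr3:87970843-87971092, plus strand: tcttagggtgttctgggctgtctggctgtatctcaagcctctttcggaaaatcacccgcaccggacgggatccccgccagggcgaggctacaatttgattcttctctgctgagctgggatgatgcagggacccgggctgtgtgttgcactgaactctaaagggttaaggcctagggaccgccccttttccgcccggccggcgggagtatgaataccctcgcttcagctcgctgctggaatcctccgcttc
A match describes letters only, and sites farther from the start were not searched.

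No difference between TG and WT passed the test for any of the 10 genes. With limma (Benjamini-Hochberg adjustment over 19798 features), 0 of 10 passed an adjusted p of 0.05, where 0.0101% of all features passed, and adjusted p-values ran from 0.92 to 0.97. At an unadjusted p under 0.05 there were 0 of 10 with limma, 0 with edgeR and 1 with DESeq2 (Cd44). The shares of all features were 4.64% with limma, 4.12% with edgeR and 5.34% with DESeq2, and neither count tool called a member. The WT and TG values overlapped for all 10 genes, and 2.53% of all features had groups without overlap. In TG, 3 members lay higher (Lcn2, Cd44 and Socs3) and 7 lower, beside 47.8% of all features higher and 52.2% lower. The median log2 fold change of the members was -0.28, beside -0.02 over all features. Its sign rested on TG 8: without that library it was 0.29, with 6 members higher and 4 lower. Without TG 5 it was -0.61, with 1 higher and 9 lower, without WT 3 -0.18 and without WT 5 -0.13. With edgeR it was -0.073, with DESeq2 -0.084, with a term for sex -0.060, and in males alone 0.34.

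Over all 8 libraries the members spread more widely among TG than WT libraries, but not all did without TG 8, or without TG 5 and TG 8. The standard deviation of log2 values was larger in TG than in WT for 10 of 10 members, against 51.7% of all features. Without TG 8 it was larger in TG for 6 of 10, against 48.1% of all features, and smaller for Vim, Serpina3n, Lcn2 and A2m. Without TG 5 and TG 8, an omission chosen after seeing the data, it was larger in TG for 5 of 10, against 47.9% of all features. It was then smaller for Vim, Serpina3n, Socs3, Cebpd and A2m. TG 8 was the lowest of the 8 libraries for 9 of 10 members, where it was lowest for 14.8% of all features. TG 5 was the highest for 6 of 10, where it was highest for 9.65% of all features. TG 8 lay under 50% of the median of the other 7 libraries for 8 of 10 members, against 12.4% of all features. TG 8 and TG 5 thus lay at opposite ends for Nes, Serpina3n, Stat3, Socs3 and Cebpd.

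**Figure D1:**
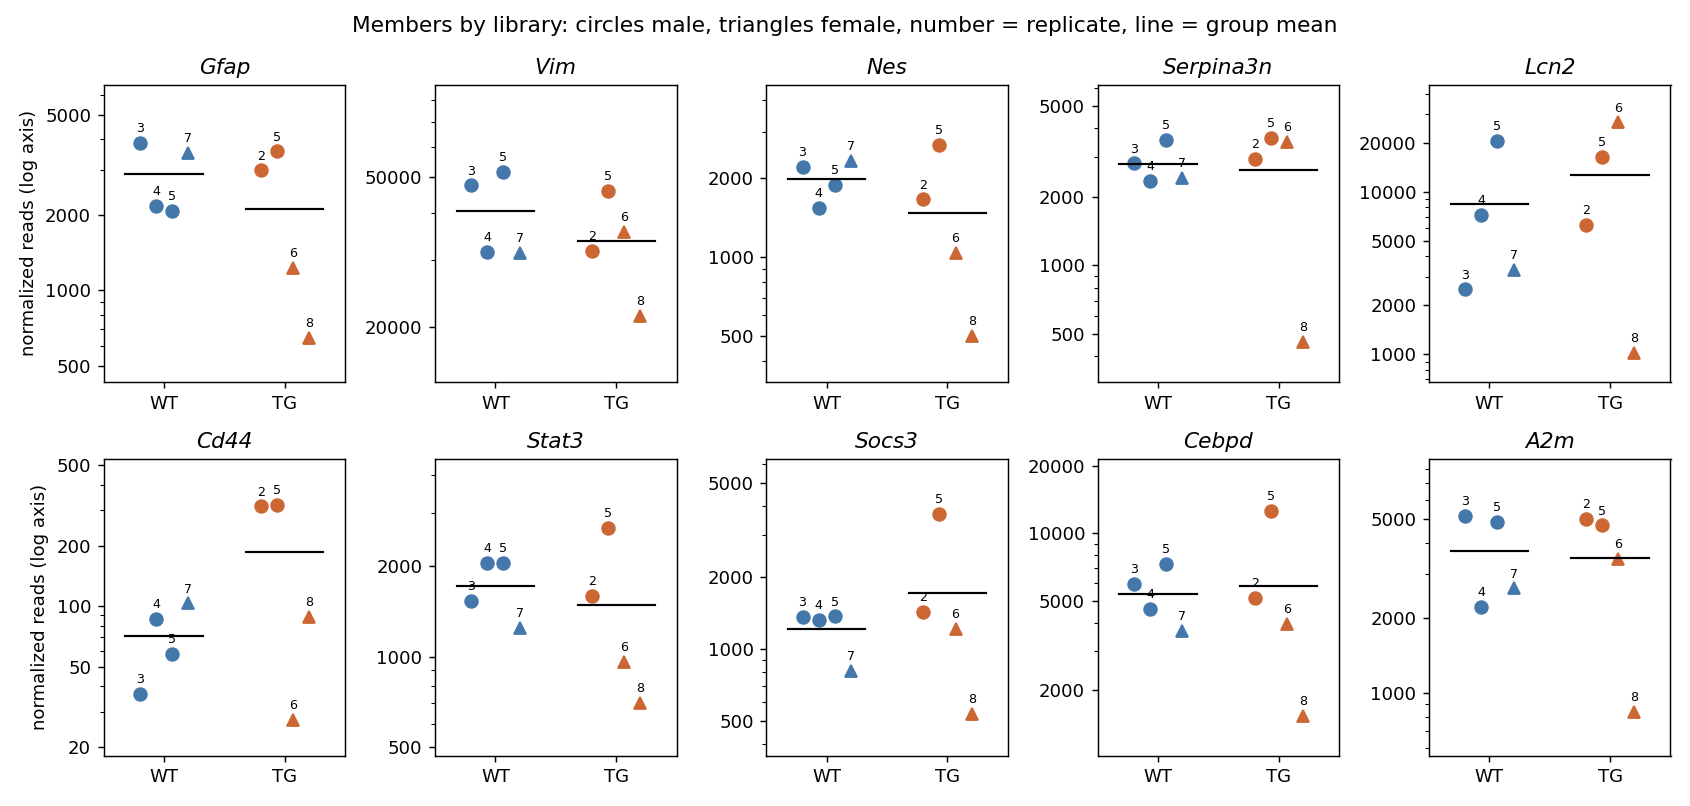
Normalized reads (log axis) of the 10 genes in each library, WT in blue and TG in orange, with circles for males, triangles for females, replicate numbers above the points and a line at each group mean. TG 8 is the lowest point in every panel but Cd44, and the groups overlap in all 10 panels.

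Per kilobase of exon (GENCODE M21 exon lengths), Vim was the most abundant member in WT, at 18470 ± 4799 normalized reads per kilobase (SD, n = 4), and Lcn2 followed at 9176 ± 9161. Cebpd (1435 ± 419), Serpina3n (1345 ± 269), A2m (808 ± 329), Gfap (715 ± 225), Socs3 (476 ± 107), Nes (325 ± 58.2) and Stat3 (276 ± 64.0) came next. Cd44 stood far below, at 12.6 ± 5.23. In this order the ranges of neighbours overlapped, except between Lcn2 and Cebpd, Serpina3n and A2m, and Stat3 and Cd44. Glul, the glutamine synthetase gene and a Müller glia marker, had 9355 to 49906 normalized reads in these retinas, not divided by exon length.

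**Figure D2:**
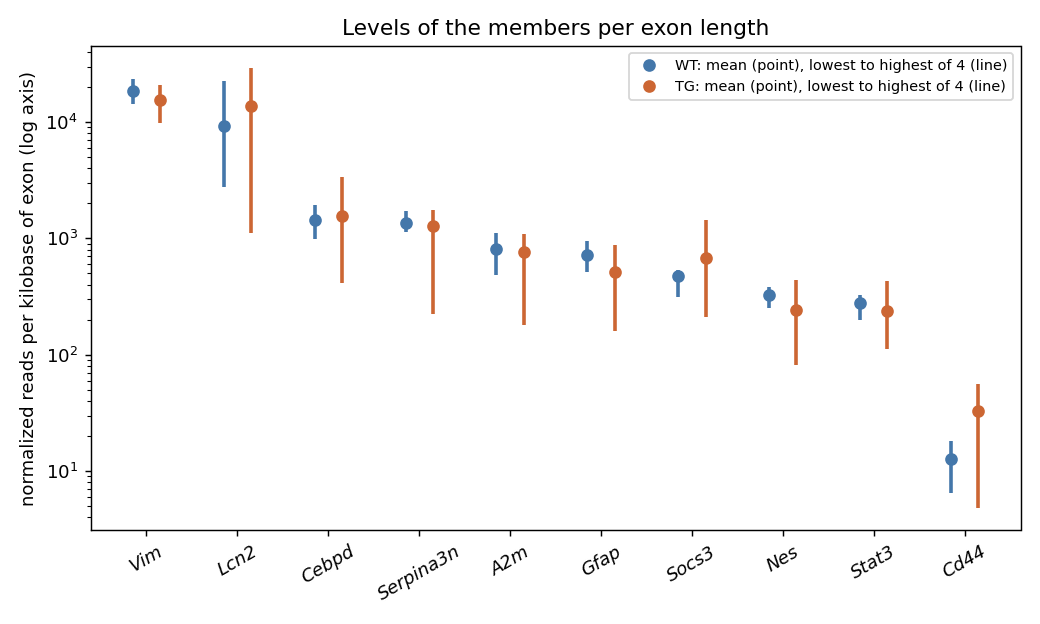
Normalized reads per kilobase of exon (log axis) of each member, in order of the WT mean, with a point for the mean and a line from the lowest to the highest of 4 libraries in WT (blue) and TG (orange). The levels run from 18470 for Vim to 12.6 for Cd44 in WT, and every TG line crosses its WT line.

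Gfap (chr11:102887337-102897200 in mm10) encodes the glial filament protein that Müller glia make after injury and that astrocytes make at rest. Its normalized reads were 3860, 2173, 2077 and 3528 in WT 3, 4, 5 and 7, and 3000, 3569, 1224 and 649 in TG 2, 5, 6 and 8. TG 2 and TG 5 lay inside the WT range, while TG 6 and TG 8 lay below it. The means were 2909 ± 917 for WT and 2110 ± 1395 for TG (both SD, n = 4), and limma gave a log2 fold change of -0.71 ± 0.43 (SE; 95% interval -1.65 to 0.22; adjusted p = 0.92). Without TG 5 it was -1.07, without TG 8 -0.25, and with males only 0.34. In whole-retina RNA, fewer cells of a type and less RNA per cell cannot be told apart.

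Nes (chr3:87971066-87980449), the gene of nestin, a filament protein of neural progenitors and of reactive glia, had 2211, 1543, 1883 and 2338 normalized reads in WT 3, 4, 5 and 7. It had 1663, 2680, 1040 and 499 in TG 2, 5, 6 and 8. As for Gfap, TG 6 and TG 8 lay below all WT libraries, but TG 5 lay above them. On the log2 scale TG minus WT was -0.67 ± 0.38 (SE; 95% interval -1.49 to 0.15; adjusted p = 0.92, limma). It was -1.05 without TG 5, -0.24 without TG 8 and 0.18 with males only. Nestin is also made by vessel cells, and the endothelial marker list (8 genes) was lowest in TG 6 and highest in WT 7 (3268 and 10052 summed normalized reads). In TG 8, where Nes was lowest, the endothelial sum was 4829, above WT 3 (3972) and WT 4 (4586). In TG 5, where Nes was highest, it was 5091. The list's part in the Nes values was not tested.

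Vim (chr2:13573952-13582826), the gene of vimentin, which Müller glia hold at rest and pair with Gfap after injury, had 47422, 31555, 51574 and 31464 normalized reads in WT 3, 4, 5 and 7. It had 31837, 45864, 35768 and 21401 in TG 2, 5, 6 and 8. Values in 3 TG libraries lay inside the WT range and TG 8 lay below it. Over all 8 libraries Vim had the smallest range of the members, 2.41-fold, though within WT the log2 values of Nes, Serpina3n, Stat3 and Socs3 spread less. Its log2 fold change was -0.28 ± 0.23 (SE; 95% interval -0.77 to 0.21; adjusted p = 0.92, limma), so a change beyond 1.16-fold higher or to below 0.587 of the WT level lay outside the interval. Without TG 8 it was -0.08. TG 8 held 0.598 of the median of the other libraries for Vim, but 0.216 for Gfap and 0.265 for Nes.

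Among 12305 features with a mean of at least 50 and an ordinary gene symbol (no predicted gene, Riken clone or pseudogene), Nes had the profile closest to Gfap over the 8 libraries. The root mean square difference between their centred log2 profiles was 0.24, where Gfap itself varied by 0.84. Rnf213 (0.33), Nfatc1 (0.34), Wwtr1 (0.34) and Adam17 (0.35) came next. Each of these 4 was likewise lowest in TG 8, and Wwtr1 had 92.7 normalized reads there against 139.6 to 430 in the other libraries. All values share the same 8 libraries and their scaling, so these distances describe likeness here and nothing further.

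Stat3 (chr11:100886806-100939540), the transcription factor that carries interleukin-6 family signals to the nucleus, had 1534, 2047, 2049 and 1243 normalized reads in WT 3, 4, 5 and 7. It had 1587, 2664, 963 and 704 in TG 2, 5, 6 and 8. TG 5 lay above all WT libraries, and TG 6 and TG 8 below them. For TG against WT, limma gave a log2 fold change of -0.37 ± 0.33 (SE; 95% interval -1.09 to 0.35; adjusted p = 0.92), with -0.71 without TG 5, -0.07 without TG 8 and 0.14 with males only. The table measures the transcript and holds no value for the phosphorylation that activates the protein.

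Socs3 (chr11:117966089-117969366), the feedback inhibitor whose promoter window carried the Stat-type palindrome, had 1362, 1319, 1371 and 807 normalized reads in WT 3, 4, 5 and 7. It had 1426, 3705, 1219 and 535 in TG 2, 5, 6 and 8. TG 5 stood above every other library by a wide margin, TG 2 lay just above the WT range and TG 8 below it. Mean levels were 1215 ± 273 for WT and 1721 ± 1377 for TG (both SD, n = 4), a log2 fold change of 0.20 ± 0.43 (SE; 95% interval -0.72 to 1.12; adjusted p = 0.97, limma). Without TG 5 this turned to -0.28, and it was 0.65 without TG 8 and 0.77 with males only.

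Cebpd (chr16:15887006-15891031), a C/EBP transcription factor of the acute phase response and a known Stat3 target, also had its highest value in TG 5 and its lowest in TG 8. Its normalized reads were 5940, 4601, 7280 and 3685 in WT 3, 4, 5 and 7, and 5140, 12630, 3959 and 1539 in TG 2, 5, 6 and 8. TG 2 and TG 6 lay inside the WT range, TG 5 above it and TG 8 below it. Its log2 fold change was -0.22 ± 0.46 (SE; 95% interval -1.21 to 0.76; adjusted p = 0.96, limma). Its sign did not hold: it was 0.12 with edgeR, 0.11 with DESeq2, 0.092 with sex as a term, 0.29 without TG 8, 0.46 with males only, and -0.72 without TG 5.

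Cebpd was the sixth closest of 12305 features to Socs3 in profile, at a root mean square difference of 0.27 on the log2 scale, and Stat3 ranked 47. The 5 closest by the naming rule were Ikzf1 (0.18), a transcription factor of blood cells, Irf9 (0.20), a partner of Stat proteins in interferon signalling, Gadd45b (0.22), Serping1 (0.22) and Dnmt3b (0.27). Irf9 had 1927 normalized reads in TG 5 and 392 in TG 8, with 594 to 918 in the other 6. Serping1, the complement C1 inhibitor gene, had 2528 in TG 5 and 588 in TG 8, with 902 to 1360 in the others. Their likeness to Socs3 in TG 5 and TG 8 follows from the way they were chosen.

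**Figure D3:**
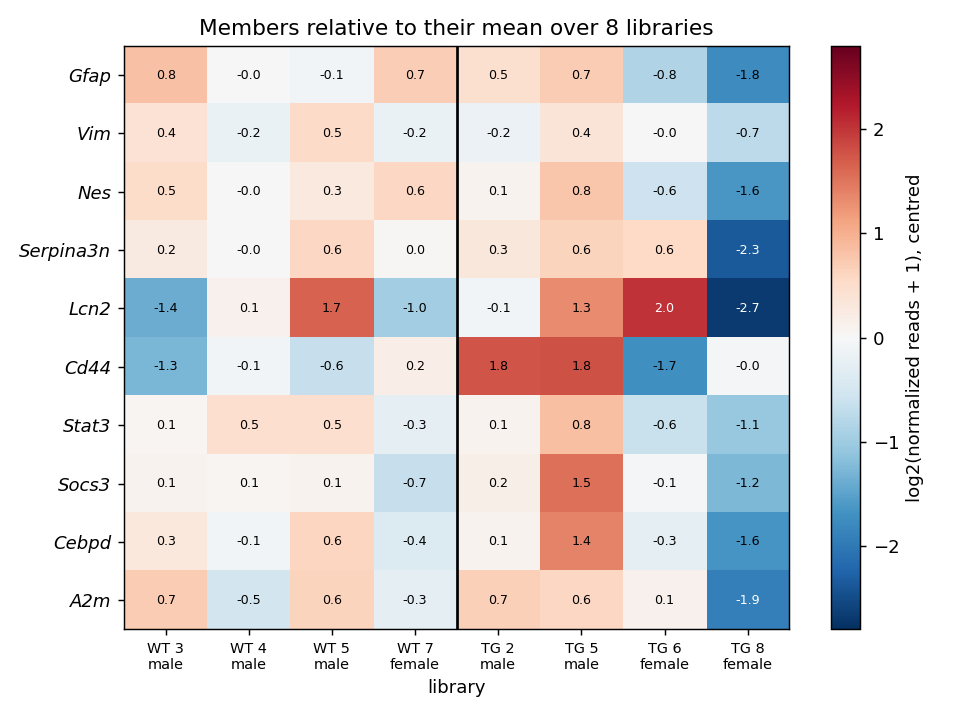
Each member's log2(normalized reads + 1) in each library, centred on its mean over 8 libraries (red above, blue below, numbers in the cells), with WT left and TG right of the line. TG 8 lies below the mean for all 10 members, only just so for Cd44, and is the lowest library for the other 9.

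Serpina3n (chr12:104406708-104414329), a secreted serine protease inhibitor often used as a marker of reactive astrocytes, showed the TG 8 gap most plainly. It had 2801, 2340, 3550 and 2411 normalized reads in WT 3, 4, 5 and 7, and 2926, 3636, 3473 and 463 in TG 2, 5, 6 and 8. The other 7 libraries lay within 2340 to 3636, and TG 8 was 5.05-fold below the lowest of them, on 475 reads. Over all 8 libraries limma gave a log2 fold change of -0.43 ± 0.50 (SE; 95% interval -1.51 to 0.66; adjusted p = 0.93), and without TG 8 one of 0.28. Serpina3n has near relatives in a gene cluster, and its values are uncertain to the extent that reads shared with them were counted, which no source used here describes.

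A2m (chr6:121636173-121679237), a broad protease inhibitor of the alpha-2-macroglobulin family, had 5163, 2213, 4874 and 2633 normalized reads in WT 3, 4, 5 and 7. It had 5010, 4722, 3455 and 836 in TG 2, 5, 6 and 8. TG 2, TG 5 and TG 6 lay inside the WT range and TG 8 below it. The log2 fold change of -0.28 ± 0.47 (SE; 95% interval -1.29 to 0.74; adjusted p = 0.96, limma) turned to 0.32 without TG 8 and 0.35 with males only. Its profile was closest to that of Serpina3n among the members (0.36 on the log2 scale). A2m also has close relatives, with the same uncertainty.

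Lcn2 (chr2:32384637-32387771), a secreted iron-siderophore binder made by reactive glia and by neutrophils, varied most of all the members. Its normalized reads were 2508, 7167, 20593 and 3314 in WT 3, 4, 5 and 7, and 6233, 16450, 26689 and 1015 in TG 2, 5, 6 and 8. High and low libraries occurred in both groups, with TG 6 and WT 5 on top and TG 8 at the bottom, a 26.3-fold range. TG minus WT was 0.29 ± 0.84 on the log2 scale (SE; adjusted p = 0.97, limma), and the 95% interval, -1.52 to 2.11, spans folds from 0.348 to 4.32. It turned negative without WT 3 (-0.12), TG 5 (-0.10) or TG 6 (-0.33), and was 1.24 without TG 8. Of 12 neutrophil and monocyte markers, Ly6g was at 0 in all libraries. The list summed to 165 to 2277 normalized reads in WT and 129 to 400 in TG, with the highest sum in WT 4, where Lcn2 had rank 4 of 8. The part of these cells in the Lcn2 values was not tested.

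Cd44 (chr2:102811141-102901665), the hyaluronan receptor of Müller glia processes and of immune and connective tissue cells, was the least abundant member and the only one not lowest in TG 8. It had 36.8, 86.5, 58.1 and 103 normalized reads in WT 3, 4, 5 and 7, and 313, 318, 27.2 and 88.8 in TG 2, 5, 6 and 8. TG 2 and TG 5, the 2 TG males, lay above every other library, TG 8 lay inside the WT range and TG 6 below it. Limma gave a log2 fold change of 0.91 ± 0.68 (SE; 95% interval -0.56 to 2.37; adjusted p = 0.92). It was 1.63 without TG 6, 0.46 without TG 5, 0.47 without TG 2 and 2.45 with males only. With edgeR the log2 fold change was 1.40 and with DESeq2 1.39, and neither passed. Fibroblast markers (6 genes) were also highest in TG 2 and TG 5, with summed values of 1595 and 1534 against 375 to 1149 in WT, 869 in TG 6 and 298 in TG 8. The other libraries did not follow this order. WT 3, with the fibroblast sum of 1149, had the lowest Cd44 value of WT, and TG 6 had less Cd44 than TG 8. The part of fibroblasts in the Cd44 values was not tested.

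The TG effect was also read within each sex, with a genotype by sex term. In TG, Gfap was at 3000 and 3569 normalized reads in the males and 1224 and 649 in the females, while the WT female, at 3528, lay within the range of the WT males. For Nes the TG males had 1663 and 2680, the TG females 1040 and 499, and the WT female 2338. In males the log2 difference of TG from WT was above 0 for 9 of 10 members (median 0.34, beside 0.01 over all features). In females it was below 0 for 8 of 10 (median -0.61, beside -0.02 over all features). The female value compares 2 TG libraries with the 1 WT female. TG 8, 1 of those 2, was the lowest library for 9 of 10 members, so the female count is not independent of that library. The difference between the sexes, female minus male effect, was -2.32 ± 0.51 (SE) for Gfap, -1.88 ± 0.52 for Nes and -3.50 ± 0.96 for Cd44. None passed over all features in the limma interaction test (adjusted p = 0.33, 0.34 and 0.34).

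Across the members 0 of 10 interactions passed with limma or edgeR, where 0.00505% of all features passed with limma. At an unadjusted p under 0.05 there were 3 of 10 with either tool, against 11.8% of all features with limma and 11.2% with edgeR. The TG effect was lower in females for 9 of 10 members, beside 52.3% of all features. The median difference of the sex-specific effects was -1.01 for the members and -0.05 over all features. For the members it was -0.27 without TG 8 and -2.10 without TG 6. Low medians were not particular to the members among the lists described below. Endothelial markers had -2.04, fibroblast markers -1.75, Müller glia markers -1.33, Cd44 ligands and partners -1.31, pericyte markers -1.26 and other Stat3-responsive genes -1.15. Other filament genes had -0.06, rod markers 0.10, neutrophil and monocyte markers 2.30 and lens markers 5.88. With 1 library left out, the difference ran from -2.78 to -1.86 for Gfap, from -2.41 to -1.35 for Nes and from -4.33 to -2.66 for Cd44. These omissions do not include WT 7, the only WT female and the only left eye of WT. For the female effect, WT sex, eye and that library therefore cannot be told apart.

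**Figure D4:**
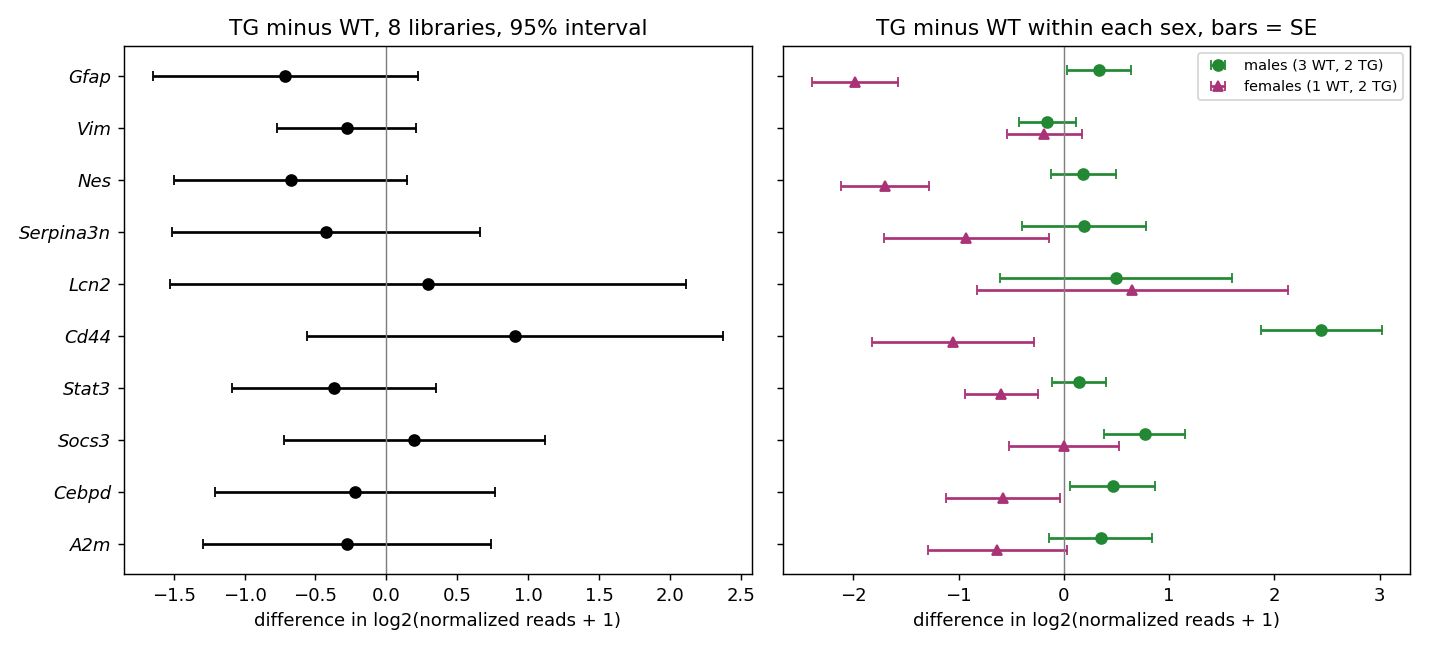
Difference of TG from WT in log2(normalized reads + 1) for each member, left over all 8 libraries with 95% intervals, right within males (circles) and within females (triangles) with standard errors. All intervals on the left cross 0, and on the right Gfap, Nes and Cd44 show the widest gaps between the sexes, none of which passed the interaction test.

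Other genes of the pathway were read from 9 lists with 105 genes, of which 97 were tested. None passed between TG and WT with limma, edgeR or DESeq2, and 8, 6 and 9 had an unadjusted p under 0.05 with these tools, 8.25% with limma beside 4.64% of all features. Of the 97, 53 lay higher and 44 lower in TG. No pathway gene therefore changed at the threshold, and the values below are given by list.

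Among interleukin-6 family cytokines, 2 of 6 tested members lay higher and 4 lower in TG (median log2 fold change -0.13). Il6, Il11 and Osm had means under 10 and were not tested. Cntf, the ciliary neurotrophic factor gene, had 1021 ± 177 normalized reads for WT and 936 ± 92.3 for TG (both SD, n = 4). Il27, a cytokine that signals through gp130, had a log2 fold change of -2.09 ± 1.13 (SE). Of 9 receptors and kinases 3 lay higher and 6 lower (median -0.08). Jak2, a Janus kinase, had 1573 ± 227 normalized reads for WT and 1207 ± 122 for TG (both SD, n = 4; log2 fold change -0.38 ± 0.16, SE). Il6st, the shared receptor gp130, stood at -0.63 ± 0.32 and Cntfr, a receptor of Cntf, at 0.33 ± 0.24. None of these 3 passed (adjusted p = 0.92 each, limma).

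Of 14 other Stat genes and Stat brakes 7 lay higher and 7 lower (median -0.06), with log2 fold changes of -0.63 for Ptpn11, -0.31 for Stat6 and -0.17 for Pias1. TG 8 was the lowest library for 8 of these 14. Other known Stat3-responsive genes had 9 of 20 members higher and 11 lower (median -0.02), with the adhesion gene Icam1 at 87.9 ± 14.5 normalized reads for WT and 132 ± 19.0 for TG (both SD, n = 4), and with log2 fold changes of 0.85 for Birc3 and -0.30 for Hif1a. In that list TG 5 was the highest library for 12 of 23 members and TG 8 the lowest for 8. None of these genes passed with limma.

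Pan-reactive astrocyte genes had 5 of 8 members higher and 3 lower in TG (median 0.08), with log2 fold changes for Aspg (2.38 ± 1.22, SE, at 0 in 2 WT libraries), S1pr3 (0.31 ± 0.20) and Hspb1 (-0.35 ± 0.31). TG 8 was lowest for 5 of the 8 and TG 5 highest for 5. The A1-type list had 11 of 13 higher (median 0.37), with Fkbp5 at 451 ± 90.6 normalized reads for WT and 613 ± 19.9 for TG (both SD, n = 4). Log2 fold changes were 0.49 for the immunoproteasome gene Psmb8 and 0.75 for the class I gene H2-T23. The A2-type list had 6 of 11 higher and 5 lower (median 0.09), among them Ptgs2 (-1.41 ± 0.47), the sphingosine kinase gene Sphk1 (1.36 ± 0.51) and Cd14 (0.66 ± 0.28). At an unadjusted p under 0.05 there were 4 A1-type and 3 A2-type genes, and none passed with adjustment (limma). Several A1-type genes belong to antigen presentation and are made by microglia as well. Microglia and macrophage markers lay higher in TG for 10 of 10 genes (median 0.37), with 0 called. TG 5 was the highest library for 9 of the 10, and the sum in WT 3 (9038) exceeded those in TG 2, TG 6 and TG 8. The part of microglia in the A1-type values was not tested.

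Other filament and filament-partner genes had 6 of 10 members higher and 4 lower (median 0.09), with synemin (Synm) at -0.69 ± 0.40 (SE), plectin (Plec) at -1.10 ± 0.67 and the neuronal filament gene Ina at 0.68 ± 0.44. Of Cd44 ligands and partners 6 of 10 lay higher and 4 lower (median 0.06). Spp1, the gene of the Cd44 ligand osteopontin, had 2298 and 2773 normalized reads in TG 2 and TG 5, the libraries with high Cd44, and 779 to 1499 in the other 6. Neither Spp1, at a log2 fold change of 0.51 ± 0.37 (SE), nor Vcan (1.81 ± 1.09) or Msn (-0.33 ± 0.29) passed, all at adjusted p = 0.92 (limma).

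Marker lists placed the low member values of TG 8 beside high Müller glia values. The 12 Müller glia markers summed to 120016 normalized reads in TG 8, the highest of the 8 libraries, against 44474 to 105930 in WT and 46354 to 111562 in the other TG libraries. High Müller glia values were not particular to TG 8. The median centred log2 value of these markers was 0.65 in TG 8, 0.63 in TG 2 and 0.50 in WT 7. The member medians in TG 2 and WT 7 were 0.13 and -0.22. TG 8 was the highest library for 4 of the 12 Müller glia markers and the lowest for 0. Rlbp1, the retinaldehyde binding protein of Müller glia and pigment epithelium, had 24774 there and 5488 to 22723 in the other 7. Glul had 48509 in TG 8, where only WT 7 was higher. Of the 12 markers, 10 lay higher in TG (median log2 fold change 0.35) and 0 passed with limma.

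Endothelial markers lay lower in TG for 8 of 8 genes (median log2 fold change -0.30) and fibroblast markers higher for 6 of 6 (median 0.82). Neutrophil and monocyte markers lay lower for 5 of 6 tested (median -1.03). In each of these lists 0 genes were called (limma). Endothelial sums were 3972, 4586, 5197 and 10052 in WT 3, 4, 5 and 7, and 3268 to 6218 in TG. Only WT 7, the WT female, stood above the TG range. Neutrophil and monocyte sums were 216, 2277, 663 and 165 in WT 3, 4, 5 and 7, and 129 to 400 in TG. WT 4 and WT 5 lay above that TG range, and WT 3 and WT 7 inside it. Retinal astrocyte markers summed to 3527 to 4702 in WT and 3024 to 4777 in TG, and TG 8, at 3804, lay within the WT range. Pdgfra and Gjb6 of that list were at 0 in at least 1 library. Microglia and macrophage markers summed to 5445 to 9038 in WT and 6646 to 11920 in TG, and TG 5 was highest for 9 of 10. Rod photoreceptor markers lay between 3353228 in TG 5 and 5124088 in TG 6, with TG 8 at 3616225. Pigment epithelium markers reached 97380 in WT 3 against 3982 to 43006 elsewhere, and lens markers 24011 in WT 3 and 19607 in TG 6 against 48.6 to 5056 elsewhere. Pericyte markers ranged from 16140 to 24619. None of these libraries was set aside, and the part of other cells in the member values was not tested.

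**Figure D5:**
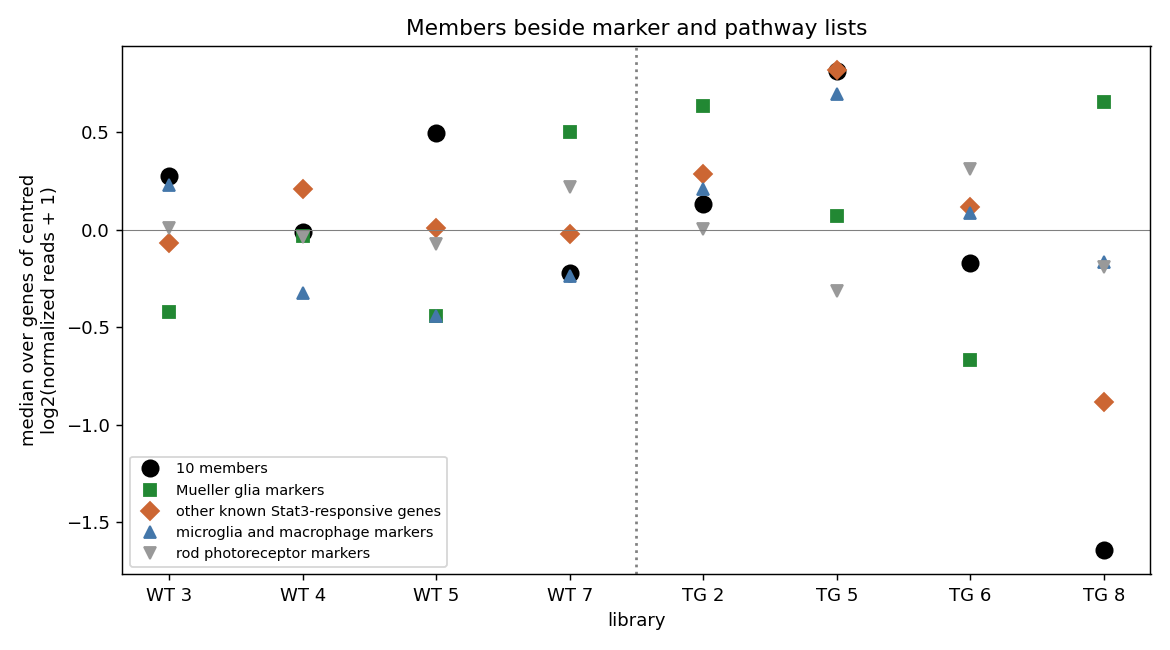
Median over genes of centred log2(normalized reads + 1) in each library, for the 10 members (black), Müller glia markers (green), other known Stat3-responsive genes (orange), microglia and macrophage markers (blue) and rod markers (grey). In TG 8 the members are at -1.64 and the Müller glia markers at 0.65, and in TG 5 the members, the Stat3-responsive genes and the microglia markers are all at their highest.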

How the data were processed

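The deposited table holds, for 8 retinas, read counts per feature divided by a size factor for each library, a normalized signal made by the authors, per the file headers. The submitters' processing notes name STAR 2.4.0, SAMtools, Picard, FastQC and DESeq2, with mm10 (GRCm38). How reads were counted, whether by strand, and with which annotation was not given by the sources used, so overlapping, antisense and near-identical genes may share counts. Dividing each column by the worth of 1 read gave whole reads for 100% of values (tolerance 0.01 read), and 61535690 to 75866423 reads per library. No 2 libraries agreed within sampling noise (lowest chi-square per feature 42.5).

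Genotypes were compared with limma 3.58.1 in R 4.3.3, on log2(value + 1) with a trended prior variance, for 19798 features averaging at least 10, with Benjamini-Hochberg adjustment and a threshold of 0.05. Fold changes on this scale understate the change of low genes. A further fit held sex and the genotype by sex interaction. Median standard errors were 0.45 for the members and 0.16 for features averaging at least 1000. As alternatives, edgeR 4.0.16 and DESeq2 1.42.0 were run on the recovered reads. The others were TMM and upper-quartile scaling, pseudocounts of 0.5 and 5, a minimum mean of 50 or none, a term for eye or for sex, males alone, a flat prior variance, and the omission of each library. Omitting TG 5 and TG 8 together was chosen after seeing the data. The fits were tested on simulated counts. Lengths are unions of GENCODE M21 basic exons.

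The 10 genes and all lists were chosen with earlier results of these data known. Named are the 10 members, up to 3 genes per pathway list with the smallest p, and the 5 features closest in profile to Gfap and to Socs3, among those averaging at least 50 whose symbol is no predicted gene, Riken clone or pseudogene. Marker genes named with values (Glul, Rlbp1, Ly6g, Pdgfra and Gjb6) were picked with their values in view. A gene that this rule would name is not reported here.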

Additional observations from a re-analysis of the deposited data

Results flagged for a closer look

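In 20 groups of 4 libraries (10 genes, WT and TG), Dixon's test at the 95% level marked 1 value, and chance marks about 1 in 20. It was the Socs3 value of WT 7, 807 normalized reads, below 1319, 1362 and 1371 in the other WT libraries. WT 7 is the WT female and the only left eye of WT.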

How the results depend on the processing

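Members called higher or lower in TG numbered 0 under every alternative run, and so did members called for the interaction. Among all features, 1 was called higher and 1 lower. Called higher were 0 with a pseudocount of 0.5, no filter, a minimum mean of 50, sex as a term, no variance trend, or without TG 5 and TG 8 (chosen after seeing the data), and 9 with DESeq2. Called lower were 3 with males only and 7 with DESeq2. With 1 library left out, 0 to 2 were called higher and 1 to 2 lower. The interaction called 1 feature, 2 with a pseudocount of 5, and 0 to 1 with 1 library left out; without WT 7, the WT female, it could not be fitted.

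Log2 fold changes of members turned sign as follows. With males only Gfap was 0.34, Nes 0.18, Serpina3n 0.19, Stat3 0.14, Cebpd 0.46 and A2m 0.35. Cebpd was 0.092 with sex as a term, 0.12 with edgeR and 0.11 with DESeq2. Without TG 5 and TG 8, Serpina3n was 0.22 and A2m 0.26. With 1 library left out, the range was -0.71 to 0.28 for Serpina3n, -0.33 to 1.24 for Lcn2, -0.28 to 0.65 for Socs3, -0.72 to 0.29 for Cebpd and -0.54 to 0.32 for A2m. The members' median, with 1 library left out, ran from -0.61 without TG 5 to 0.29 without TG 8. The cause of these changes was not tested. Upper-quartile and TMM scaling turned no member's sign. Reads limit Cd44 most, with 22 in TG 6. No paired analysis was possible because WT and TG share only 1 replicate number in the labels.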
